A study of Homo sapiens with 6 samples.

Results

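The proteins of the mitochondrial ribosome were described in H526 cells, a human small cell lung cancer (SCLC) line, and in H526 cells made resistant to onvansertib, an inhibitor of the mitotic kinase PLK1. Members were the protein-coding genes whose symbol is MRPL (large subunit) or MRPS (small subunit) followed by a digit. Of 166 genes of any type with such a symbol, 78 were protein-coding, 49 of the large and 29 of the small subunit, among 62710 genes in the table. The parental group had 3 libraries, numbered 1 to 3, and the resistant group 3 libraries, numbered 7 to 9. The resistant cells came from the same line, grown for at least about a year in onvansertib that was raised from 10 to 75 nM, and the labels give both groups the same growth medium. The sources used here do not say whether the resistant cells are a clone or a mixture, or whether the drug was present at harvest. RNA was taken at 3 separate times, so the p-values measure the spread between these samples. The sources used here describe no separately derived resistant line, so the spread between such lines is not measured. Each value is a read count per gene normalized by the authors, called a normalized value below. A log2 fold change is the difference between the group means of log2(value + 1), positive where resistant cells were higher, and a gene was called at an adjusted p under 0.05 by limma across the 16347 genes tested.

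Mitochondria keep a ribosome of their own, which makes the few proteins encoded in mitochondrial DNA, all of them membrane subunits of oxidative phosphorylation. Its rRNAs are transcribed inside the organelle, while every one of its proteins is encoded in the nucleus, made in the cytosol and imported. The small subunit decodes the mRNA, and the large subunit forms the peptide bond and feeds the new chain into the inner membrane. Many members descend from bacterial ribosomal proteins, and others were added to the particle during the evolution of mitochondria. Some symbols do not match the subunit: in known structures MRPS18A and MRPS30 sit in the large subunit, and MRPS36 is now assigned to the 2-oxoglutarate dehydrogenase complex. Subunits are given by symbol below.

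The depth, read from the step that 1 read makes in the low values, ranged from 25721359 to 28542469 reads across parental libraries and from 22368142 to 23266185 across resistant ones. All 78 members passed the filter of a mean of at least 10, and every member was at 157 or more in every library. Counting error is larger for members at low values, and its size was not estimated. POU2F3, the regulator that marks the tuft-like SCLC subtype of H526, was between 24511 and 27873 in the 6 libraries and was not called. Other tuft cell markers differed by limma, AVIL (-0.80) and ASCL2 (-0.47) lower and TRPM5 (1.77) and SOX9 (0.34) higher in resistant cells, as log2 fold changes. PTPRC and CD3E, markers of blood cells, were at or near 0. Of the neuroendocrine markers, INSM1, CHGA and SYP were all lower in resistant cells. The fibroblast markers COL1A1 and COL1A2 were higher in resistant cells but low in all libraries, between 42.0 and 298. Their part in the results for the members was not tested.

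Mitochondrial ribosome proteins changed in both directions and by small amounts. By limma, 31 of the 78 members (39.7%) were called, against 37.7% of all genes tested. Of these, 24 were lower in resistant cells (30.8% of members, against 19.8% of all genes) and 7 were higher (8.97%, against 17.8%). The median log2 fold change was -0.08 over the members and -0.00 over all genes, and 50 members (64.1%) were below 0, against 50.1% of all genes. In bulk RNA, fewer cells of a type and less RNA per cell cannot be told apart. No member differed by more than 1 on the log2 scale, a size that 12% of all genes passed, and the median absolute log2 fold change was 0.14 for members and 0.30 for all genes. Members also varied less between libraries of a group, with a median SD of 0.10 on the log2 scale against 0.15 for all genes. All genes tested reach down to a mean of 10, while no member was below 157 in any library. These contrasts were not matched for level. With a minimum mean of 50, the same 31 members were called, against 42.3% of all genes (23.4% lower and 19% higher). The library values of the groups did not overlap for 38 members, 31 lower and 7 higher in resistant cells, and this was so for 49.9% of all genes (25.9% lower and 24% higher). With 3 libraries against 3, the smallest p that an exact permutation test can give for 1 gene is 0.10.

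Calls were made in both subunits, beside 37.7% of all genes tested (19.8% lower and 17.8% higher). In the large subunit 19 of 49 members (38.8%) were called, 16 lower and 3 higher, and the median log2 fold change was -0.08. In the small subunit 12 of 29 (41.4%) were called, 8 lower and 4 higher, also with a median of -0.08. The difference between the subunits was not tested. Among large subunit members with a bacterial homolog, 8 of 30 (26.7%) were called lower and 0 higher. Of their 30 log2 fold changes, 22 were below 0 (73.3%, against 50.1% of all genes). Among the 19 mitochondria-specific large subunit members, 8 were lower and 3 higher. The small subunit held 4 lower and 2 higher among 16 members with a bacterial homolog, and 4 lower and 2 higher among 10 mitochondria-specific members. Differences between these classes were not tested.

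**Figure D1:**
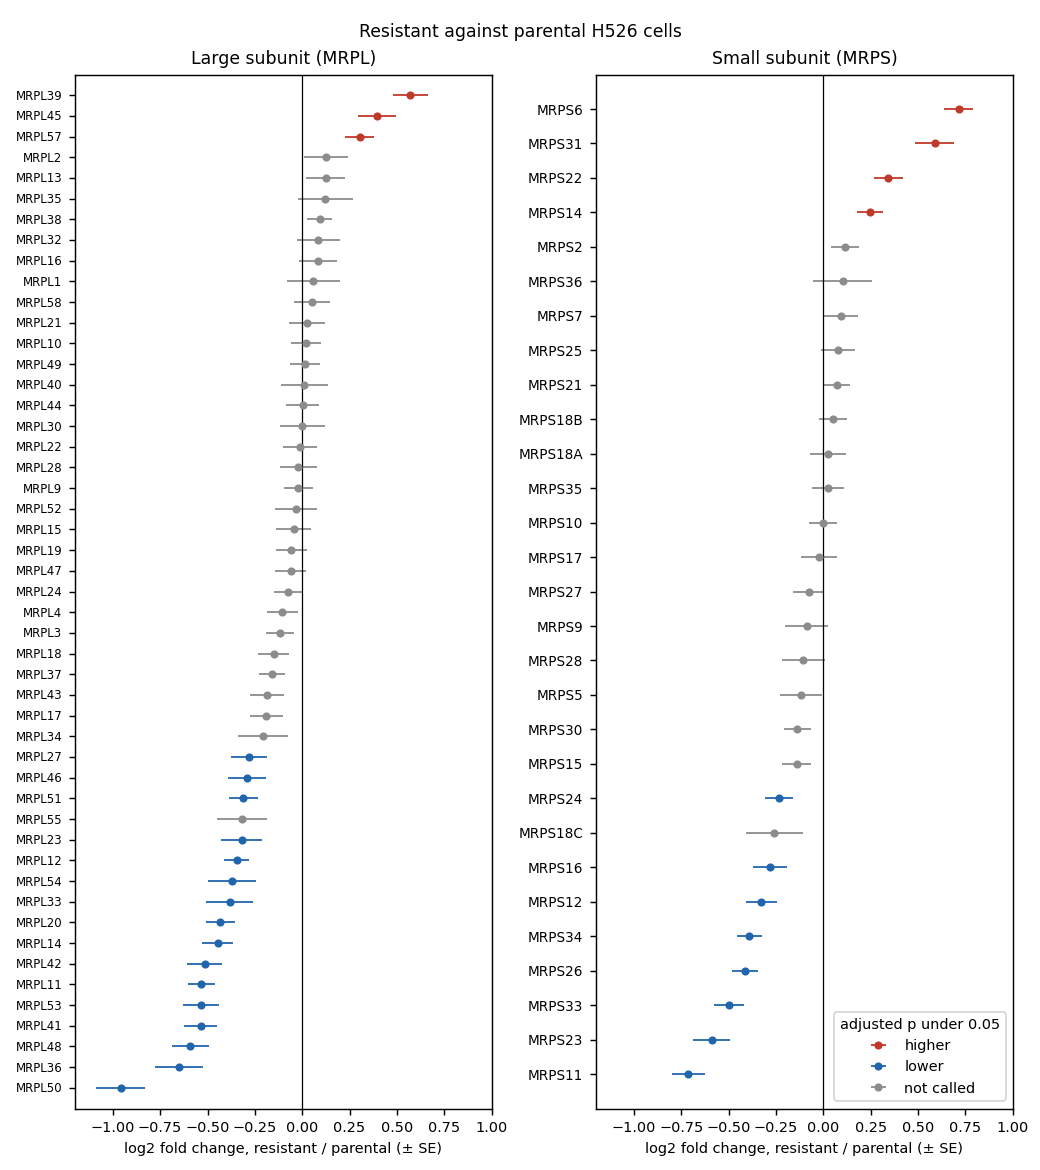
Log2 fold change, resistant against parental H526 cells, of the 49 large and 29 small subunit members (points, with the standard error of the fit as bars), coloured by call at an adjusted p under 0.05. MRPL50 is lowest at -0.96 and MRPS6 highest at 0.71, and most members lie near 0.

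The sequences at the start of the genes are shown because the same short element recurs there in many members. The table of RefSeq promoters on GRCh38.p14, from 250 bases before to 50 after each start, held 69 of the 78 members. It was searched on both strands for the letters AAGATGGC (YY1) and CCGGAAGT (ETS family, bound by GABPA) and for the palindromes of 10 letters known for NRF1 and BANP, none of which contains another. The YY1 letters were in 20 of the 69 member promoters (29.0%), against 5.23% of the promoters of tested protein-coding genes and 3.03% of all promoters in the table. The ETS letters were in 11 (15.9%, against 8.59% of tested genes), and the NRF1 and BANP letters in 1 each (1.45%, against 2.24% and 0.902%). In 15 of the 20 members the YY1 letters began past the start of the transcript. Of those 15, the ATG inside AAGATGGC was an annotated start codon in 12, and among the 330 tested genes with such a match it was in 73.3%. The sites of the 7 called members that carry the element past the start, 24 bases each, are given with the YY1 letters in capitals, read 5′ to 3′ along the gene, with their place on GRCh38.
MRPL20, chr1:1407263-1407286, minus strand: acccgggcAAGATGGCagcggcgc
MRPL42, chr12:93467514-93467537, plus strand: attgaaacAAGATGGCgggttcgt
MRPL45, chr17:38297173-38297196, plus strand: gcgggaacAAGATGGCagccccca
MRPL46, chr15:88467365-88467388, minus strand: gagaacgaAAGATGGCggcgcccg
MRPL50, chr9:101398580-101398603, minus strand: tctcatcgAAGATGGCggcgcgat
MRPL51, chr12:6493226-6493249, minus strand: taaggcccAAGATGGCtgtcttcg
MRPS24, chr7:43869483-43869506, minus strand: cttggcccAAGATGGCggcctccg
The element began between 9 and 24 bases into the transcript in these genes, counted from 1 at the first transcribed base. MRPL45 was higher and the other 6 were lower in resistant cells. Over the members in the table, the YY1 letters were in 8 of 23 that were lower, 1 of 7 that were higher and 11 of 39 that were not called.

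Windows just upstream of the start are given for the most reduced member, for a reduced member with the ETS letters, for a higher member with the BANP letters and for a member with none of the letters, with matches in capitals.
MRPL50, chr9:101398619-101398738, minus strand: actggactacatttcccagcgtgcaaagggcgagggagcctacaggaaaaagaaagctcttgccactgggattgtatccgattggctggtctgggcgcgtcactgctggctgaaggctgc
MRPL20, chr1:1407294-1407413, minus strand: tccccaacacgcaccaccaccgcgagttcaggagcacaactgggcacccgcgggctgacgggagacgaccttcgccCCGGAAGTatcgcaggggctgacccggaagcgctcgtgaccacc
MRPL57, chr13:21176553-21176657, plus strand: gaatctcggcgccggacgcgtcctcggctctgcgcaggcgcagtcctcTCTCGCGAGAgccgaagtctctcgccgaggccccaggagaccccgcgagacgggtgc
MRPL41, chr9:137551759-137551878, plus strand: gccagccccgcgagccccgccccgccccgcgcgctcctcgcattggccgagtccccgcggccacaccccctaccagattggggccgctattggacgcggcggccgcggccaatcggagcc
These matches are a description of the letters and not of bound factors.

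MRPL50, a mitochondria-specific protein of the large subunit (ENSG00000136897, chr9:101387633-101398618), was the member that differed most. Its normalized values were 337, 336 and 313 in parental libraries 1, 2 and 3, and 171, 157 and 178 in resistant libraries 7, 8 and 9. The groups lay far apart, with every resistant library near 1 level and every parental library near another. The log2 fold change was -0.96 (SE 0.13, limma adjusted p = 0.000294). On chromosome 9 the median of the 50 tested genes nearest to MRPL50 was -0.74, and after the median deviation of the neighbours was subtracted in each library MRPL50 was at -0.22 (limma adjusted p = 0.197).

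MRPL36, the counterpart of a small zinc-binding protein of the bacterial ribosome, was at 443, 428 and 484 in parental and at 291, 253 and 320 in resistant libraries. Its log2 fold change was -0.65 (SE 0.13, limma adjusted p = 0.00252), beside a neighbour median of -0.55 on chromosome 5, and after centring on the neighbours it was at -0.11 (adjusted p = 0.532). MRPL48, a mitochondria-specific member, was at 918, 964 and 955 in parental and at 668, 555 and 668 in resistant libraries. In contrast to MRPL36, its neighbours on chromosome 11 had a median of 0.03, and its log2 fold change was -0.59 (SE 0.10, adjusted p = 0.00106) before and -0.62 after centring. MRPL41 was at 957, 1002 and 994 against 655, 643 and 742, a log2 fold change of -0.54 (SE 0.09, limma adjusted p = 0.00104). MRPL53 was at 713, 812 and 769 against 543, 501 and 539, a log2 fold change of -0.53 (SE 0.09). Both kept their call after centring, at -0.49 and -0.39.

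The stalk of the large subunit recruits the translation factors, and its members gave unlike values. MRPL11, at the base of the stalk, was at 2068, 1948 and 2051 in parental and at 1455, 1349 and 1391 in resistant libraries (log2 fold change -0.53, SE 0.07, limma adjusted p = 0.000248). MRPL12, the repeated protein at the tip of the stalk, was at 4484, 4422 and 4667 against 3775, 3379 and 3530 (log2 fold change -0.35, SE 0.06, limma adjusted p = 0.0021). The groups did not overlap for either gene. MRPL10, which anchors MRPL12, was at 1418, 1519 and 1558 against 1526, 1623 and 1416, with overlapping groups and a log2 fold change of 0.02 (SE 0.08, adjusted p = 0.858).

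Other lower members of the large subunit were MRPL42 (-0.52), MRPL14 (-0.45), MRPL20 (-0.43), MRPL33 (-0.38), MRPL54 (-0.37), MRPL23 (-0.32), MRPL51 (-0.31), MRPL46 (-0.29) and MRPL27 (-0.28), given as log2 fold changes. MRPL20 was at 2813, 2523 and 2839 in parental and at 2138, 1918 and 2000 in resistant libraries. MRPL20-AS1 overlaps its exons on the other strand and was at 883 ± 35.8 in parental and 831 ± 45.6 in resistant cells (SD, n = 3 each), and without a stated strand setting reads of such pairs cannot be told apart. The calls of MRPL23, MRPL27, MRPL33, MRPL46 and MRPL54 were lost without resistant library 8, and also without parental library 3. Of 14 alternative settings in all, 10 took away the call of MRPL46 and 9 that of MRPL54. For MRPL23 and MRPL27 it was 8 each, and for MRPL33 it was 5.

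Of the large subunit, 3 members were higher in resistant cells. MRPL39, a mitochondria-specific member related to threonyl-tRNA synthetases, was at 634, 575 and 605 in parental and at 952, 908 and 836 in resistant libraries (log2 fold change 0.57, SE 0.09, limma adjusted p = 0.00084). MRPL45, which holds the ribosome at the inner membrane, was at 1230, 950 and 1087 against 1472, 1424 and 1379 (log2 fold change 0.40, SE 0.10, limma adjusted p = 0.0101). MRPL57 was at 1501, 1485 and 1473 against 1886, 1679 and 1950 (log2 fold change 0.30, SE 0.08, limma adjusted p = 0.0109). For all 3 the groups lay apart. MRPL45 kept its call after centring on its neighbours (0.28), and MRPL57 lay at 0.09 without a call.

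MRPL44 and MRPL58 were not called. MRPL44, which has the fold of an RNase III, was at 887, 806 and 902 against 918, 852 and 830 (log2 fold change 0.00, SE 0.09). MRPL58, a peptidyl-tRNA hydrolase that frees stalled chains, was at 1305, 1375 and 1513 against 1532, 1287 and 1532 (log2 fold change 0.05, SE 0.09). The groups overlapped for both.

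In the small subunit the lowest member was MRPS11, a homolog of a bacterial protein of the platform (ENSG00000181991, chr15:88467453-88480776). It was at 1057, 975 and 1090 in parental and at 657, 611 and 635 in resistant libraries, with groups far apart. Its log2 fold change was -0.71 (SE 0.09, limma adjusted p = 0.000151), and it kept its call after centring on the neighbours, at -0.42 (adjusted p = 0.00525). MRPS23, a mitochondria-specific member, was at 1927, 2034 and 2149 against 1458, 1163 and 1458 (log2 fold change -0.59, SE 0.10). The neighbours of MRPS23 had a median of -0.03. MRPS33 was at 1343, 1258 and 1405 against 989, 894 and 953 (log2 fold change -0.50, SE 0.08), and after centring was at -0.22 (limma adjusted p = 0.055).

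MRPS26 was at 2975, 3191 and 3137 in parental and at 2371, 2183 and 2438 in resistant libraries (log2 fold change -0.41, SE 0.07, limma adjusted p = 0.00109). MRPS34, whose loss in people destabilizes the small subunit, was at 3542, 3251 and 3506 against 2742, 2548 and 2565 (log2 fold change -0.39, SE 0.07). MRPS12, the protein of the decoding centre, was at 1527, 1665 and 1620 against 1391, 1189 and 1258 (log2 fold change -0.33, SE 0.08, limma adjusted p = 0.0104). All 3 had resistant libraries below every parental library. MRPS16 (-0.28) and MRPS24 (-0.23) were lower as well. Their calls were lost without resistant library 8, and also without parental library 3. Of the 14 alternatives, 7 took away the call of MRPS16 and 5 that of MRPS24.

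The highest member was MRPS6, a homolog of a bacterial platform protein, on the long arm of chromosome 21 (ENSG00000243927, chr21:34073224-34143034). It was at 884, 931 and 853 in parental and at 1501, 1420 and 1458 in resistant libraries, a log2 fold change of 0.71 (SE 0.08, limma adjusted p = 6.71e-05). Its neighbours had a median log2 fold change of 1.02, and after centring MRPS6 was lower, at -0.30 (adjusted p = 0.0231). MRPS6 also shares exon bases on the same strand with SLC5A3, an inositol transporter, which was at 829 ± 79.3 in parental and 1463 ± 88.2 in resistant cells (SD, n = 3 each). How reads were divided between these genes cannot be seen in the normalized values. MRPL39, the other member on chromosome 21, had neighbours at 0.68 and was at -0.11 after centring, with no call.

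MRPS31, a mitochondria-specific member on chromosome 13, was at 575, 508 and 485 in parental and at 834, 719 and 801 in resistant libraries (log2 fold change 0.59, SE 0.10, limma adjusted p = 0.00155). Its neighbours had a median of 0.34, and its call was lost after centring (0.25, adjusted p = 0.091). MRPS22, a mitochondria-specific member, was at 897, 879 and 941 against 1174, 1133 and 1140 (log2 fold change 0.34, SE 0.08, limma adjusted p = 0.00549). It kept its call after centring, at 0.25. MRPS14 was at 1424, 1431 and 1396 against 1684, 1612 and 1749 (log2 fold change 0.25, SE 0.07, limma adjusted p = 0.0183). The call of MRPS14 was lost in 4 of 14 alternatives, among them centring (0.18, limma adjusted p = 0.104). For all 3 of these members every resistant library was above every parental library.

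The MRPS18 family gives MRPS18A to the large subunit and MRPS18B and MRPS18C to the small subunit, and the groups overlapped for all 3. MRPS18A was at 0.03 (SE 0.10) and MRPS18B at 0.05 (SE 0.07) on the log2 fold change scale. MRPS18C was at 339, 398 and 384 against 307, 260 and 378, a log2 fold change of -0.26 (SE 0.15, limma adjusted p = 0.205). MRPS28 was at -0.11 (SE 0.12), MRPS30 at -0.14 (SE 0.07) and MRPS36 at 0.10 (SE 0.16), and none of these was called.

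**Figure D2:**
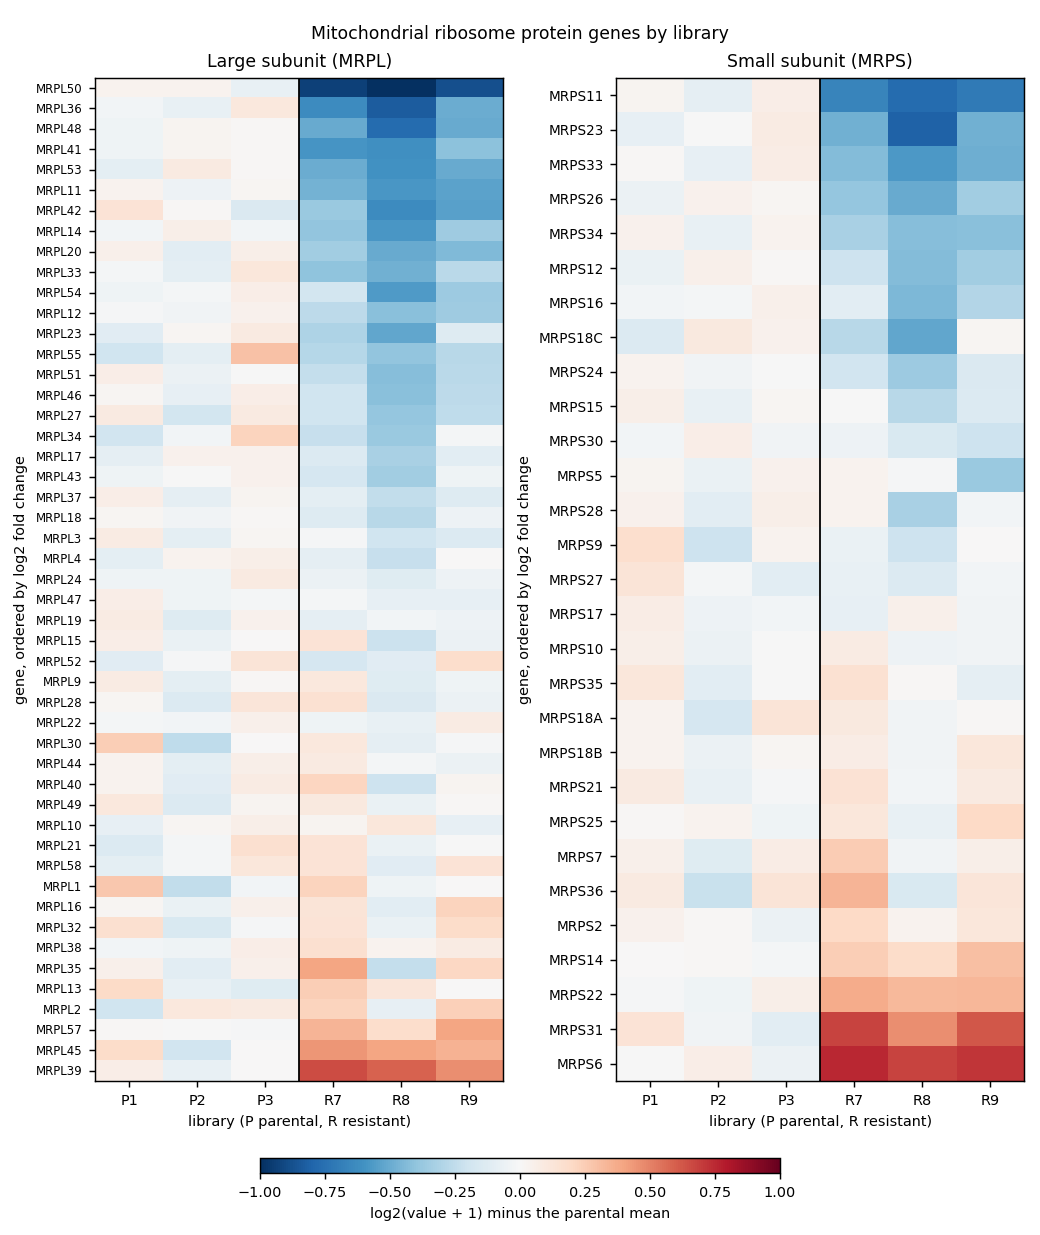
Log2(value + 1) of each member in each library minus the mean of the 3 parental libraries (colour), with genes ordered by log2 fold change from the lowest at the top. P1 to P3 are parental and R7 to R9 resistant libraries. Resistant library 8 is the lowest resistant library for 66 of the 78 members.

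Resistant library 8 stood below the other libraries for most members. It was the lowest of the 3 resistant libraries for 66 of 78 members (84.6%), against 36.1% of all genes tested, and the lowest of all 6 for 47 members (60.3%, against 20.6%). Of the parental libraries, library 2 was the lowest for 45 members (57.7%, against 35.7% of all genes). The summed value of the large subunit was 71973, 67863 and 72536 in parental and 68375, 60786 and 65913 in resistant libraries, so the groups overlapped. That of the small subunit was 48342, 46010 and 47835 against 46771, 41574 and 44448, also with overlap. The resistant to parental ratio of the sums was 0.919 for the large and 0.934 for the small subunit, and 0.948 and 0.962 without resistant library 8. The sum over all genes tested had a ratio of 0.956. The large subunit sum was between 1.47 and 1.52 times the small subunit sum in parental and between 1.46 and 1.48 times in resistant libraries.

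Without resistant library 8, 24 members were called, 17 lower and 7 higher, against 29.4% of all genes (16.1% lower and 13.3% higher), and all 24 were among the 31. The median log2 fold change was then -0.05 in the large and -0.03 in the small subunit. The cytosolic ribosomal proteins were low in the same library, with sums of 825052, 772651 and 842269 in resistant libraries 7, 8 and 9, and between 869394 and 877280 in parental libraries. By limma, 31 of 97 cytosolic ribosomal protein genes tested were lower and 15 higher, with a median of -0.05, against 19.8% lower and 17.8% higher over all genes. Quantile normalization turned this to 16 lower and 25 higher, with a median of 0.04, and without resistant library 8 it was 19 lower and 15 higher. The part of this library in the members' results was not tested beyond these values.

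**Figure D3:**
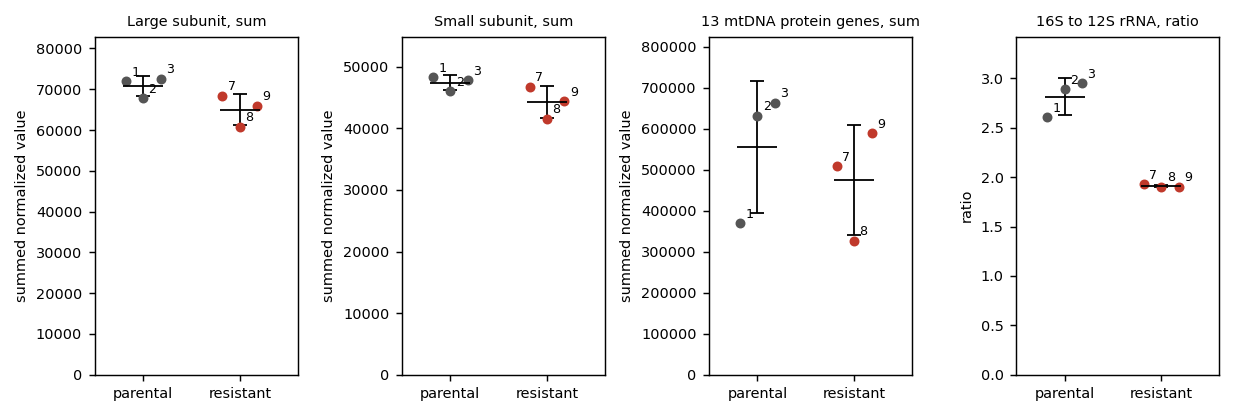
Summed normalized value of the large subunit, the small subunit and the 13 protein genes of mitochondrial DNA, and the ratio of 16S to 12S rRNA, in each library (points, numbered), with the mean and SD of each group of 3 (bars). The groups overlap in the sums and lie apart in the rRNA ratio, at 2.61 to 2.95 in parental and 1.90 to 1.93 in resistant libraries.

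The members lie on 21 chromosomes, and several of the most changed lie where neighbouring genes changed too. Over the 78 members, the log2 fold change was set against the median of the 50 nearest tested genes. Pearson r was 0.673 and Spearman rho was 0.462, as a description across genes that share libraries. Over all genes Pearson r was 0.297, and this contrast was not matched for level. Both members on chromosome 21, MRPL39 and MRPS6, and both on chromosome 13, MRPL57 and MRPS31, were higher. Both on chromosome 15, MRPL46 and MRPS11, were lower, but their starts lie 320 bp apart and MRPL46 lost its call in 10 of 14 alternatives. Of the other chromosomes with 2 members, chromosomes 10 and 16 had 1 lower each and chromosome 4 had 0 called. Of the 7 higher members 4 had a neighbour median above 0.2, and of the 24 lower members 6 had one below -0.2. How often this holds for called genes in general was not counted.

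After centring on the neighbours, 23 members were called, 21 lower and 2 higher, against 31% of all genes (16.4% lower and 14.6% higher). Of these, 19 were shared with the 31 calls, 16 of the 24 lower and 2 of the 7 higher members kept their direction, and MRPS6 turned from higher to lower. The 2 that stayed higher were MRPL45 and MRPS22. A further 4 members became lower, among them MRPL52, whose neighbours on chromosome 14 had a median of 0.50 while MRPL52 itself was at -0.03. The median log2 fold change over the members moved from -0.08 to -0.11. DNA copy number was not measured here.

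**Figure D4:**
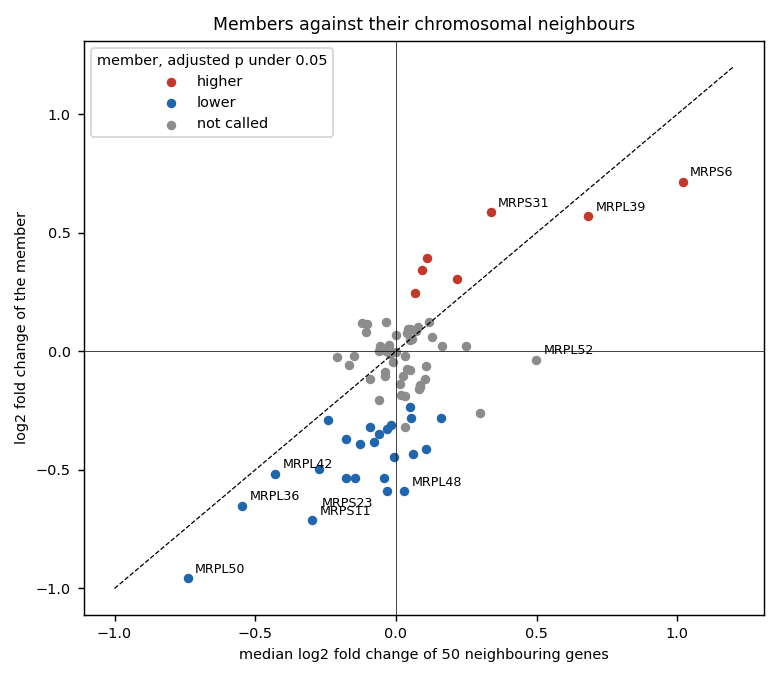
Log2 fold change of each of the 78 members (vertical axis) against the median log2 fold change of its 50 nearest tested genes (horizontal axis), coloured by call. On the dashed line a member equals its neighbours. MRPS6 and MRPL39 lie below the line at the upper right, and MRPL50, MRPL36 and MRPL42 lie near it at the lower left.

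Of the 27 members that begin within 1000 bp of another coding gene on the opposite strand (34.6%, against 13.4% of tested coding genes), 5 were called together with their partner, 3 in the same direction and 2 in opposite directions. The pair of MRPL46 and MRPS11 is counted from both sides among the 3, the 5 and the 27. How often both genes of such pairs were called among coding genes in general was not counted. MRPL46 and MRPS11 are such a pair of members, with starts 320 bp apart, and both were lower (-0.29 and -0.71). MRPL50 faces ZNF189, a zinc finger gene whose start lies 233 bp away, and ZNF189 was at 319 ± 20.6 in parental and 145 ± 6.89 in resistant cells (SD, n = 3 each), a log2 fold change of -1.14. By contrast, MRPL54 (-0.37) was lower beside APBA3, which was higher at 0.79. MRPS34 was likewise lower beside EME2 (0.47), a gene on the other strand whose exons overlap it. Over the 27 pairs the log2 fold changes had Pearson r = 0.248, as a description. Among the 14 alternatives, MRPL46 lost its call in 10 and MRPL54 in 9.

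Short transcripts held most of the lower members. Of 26 members whose canonical transcript is under 1000 bases, 14 were lower and 1 higher, and the median log2 fold change was -0.29. Of 34 members from 1000 to under 2000 bases, 4 were lower and 4 higher (median 0.01), and of 18 at 2000 bases or more, 6 were lower and 2 higher (median -0.07). Among tested protein-coding genes in general the medians rose with length, at -0.22, -0.08 and 0.00, with 39.3%, 25.7% and 20.3% lower. The members did not follow this order, as those from 1000 to under 2000 bases had the highest median. Members with a GC content of 55% or more were lower in 10 and higher in 0 of 19 cases (median -0.32). Among all tested coding genes of that GC content 27.9% were lower and 17.9% higher, with a median of -0.07. The part of transcript length and GC content in the calls was not tested.

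**Figure D5:**
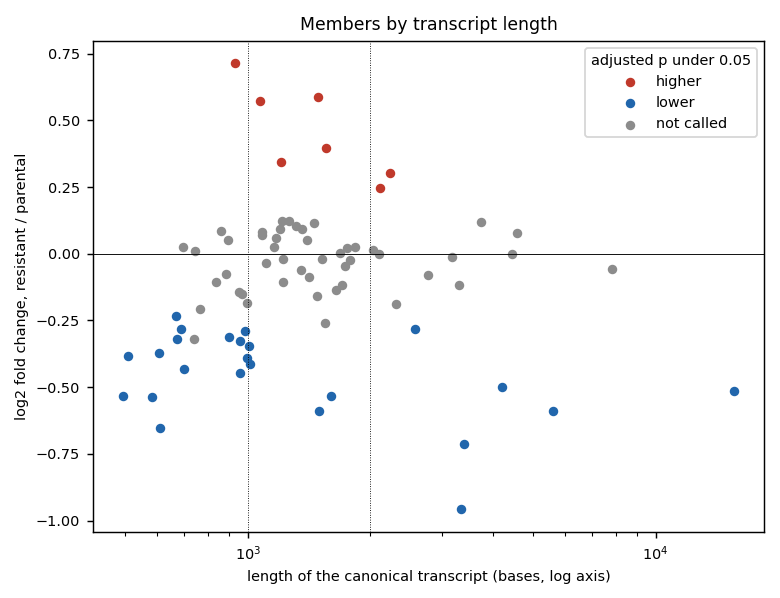
Log2 fold change of each of the 78 members (vertical axis) against the length of its canonical transcript (horizontal axis, log scale), coloured by call. Dotted lines mark 1000 and 2000 bases. Of the 26 members to the left of the first line, 14 are lower and 1 is higher.

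Members were abundant among coding genes. Per kb of canonical transcript, their median normalized value was 806, at percentile 82.5 of the tested protein-coding genes, whose median was 209. The median was 841 per kb in the large and 756 per kb in the small subunit. The highest levels per kb were those of MRPL12 (4007) and MRPL20 (3388) in the large and MRPS15 (5053) and MRPS24 (3972) in the small subunit. The lowest were those of MRPL50 (74.5) and MRPL42 (108) in the large and MRPS18C (222) and MRPS25 (233) in the small subunit. The canonical transcript of MRPL42 has 15557 bases, which sets its low level on this scale. The spread from lowest to highest was 67.8-fold, and the log2 levels of the members in parental and resistant cells had Pearson r = 0.955.

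Of the 5 subunits whose symbols do not begin with MRP, 1 was called. AURKAIP1, a small subunit protein, was at 3687 ± 121 in parental and 3061 ± 58.5 in resistant cells (SD, n = 3 each), a log2 fold change of -0.27 (limma adjusted p = 0.00605). The GTP-binding DAP3 was at -0.07, PTCD3 at 0.01, CHCHD1 at -0.15 and GADD45GIP1 at -0.10, none of them called.

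The rRNA core is encoded in mitochondrial DNA. MT-RNR2, the 16S rRNA of the large subunit, was at 34162 ± 10765 in parental and 19754 ± 5226 in resistant cells (SD, n = 3 each), a log2 fold change of -0.77 (limma adjusted p = 0.0281). This call was lost in 6 alternatives, among them the one without resistant library 8 (-0.56, adjusted p = 0.107). MT-RNR1, the 12S rRNA of the small subunit, was at -0.21 (adjusted p = 0.467). The ratio of 16S to 12S was 2.61, 2.89 and 2.95 in parental and 1.93, 1.91 and 1.90 in resistant libraries, so the groups lay apart, including without library 8. These rRNAs lack the long poly(A) tails of nuclear mRNAs, and how RNA was selected for the libraries was not given in the sources used here.

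The 13 protein genes of mitochondrial DNA, whose mRNAs are what this ribosome reads, spread widely within each group. Their sum was 369551, 632270 and 663655 in parental and 509393, 326705 and 588989 in resistant libraries, with parental library 1 and resistant library 8 both low. By limma, MT-ND1, a complex I subunit whose gene follows MT-RNR2, was lower (-0.89, adjusted p = 0.0142), and the other 12 were not called. The call of MT-ND1 was lost without parental library 3 (-0.77, adjusted p = 0.0584) and without the trend (adjusted p = 0.0809). All 13 log2 fold changes were below 0, and 6 of 13 were without resistant library 8. The ratio of MT-ND1 to MT-ND4 was 0.440, 0.407 and 0.383 in parental and 0.261, 0.241 and 0.272 in resistant libraries, with no overlap.

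Genes that help the ribosome work moved in both directions. Of 16 translation factors, 3 were higher and 2 lower. TSFM, the exchange factor of the elongation factor EF-Tu, was lower (-0.78, limma adjusted p = 5.77e-05), as was MTRFR, a rescue factor for stalled ribosomes (-0.58). OXA1L, which inserts new chains into the membrane, was higher (0.56), and so were MTFMT (0.57) and GUF1 (0.55). TSFM and GUF1 kept their calls after centring on the neighbours, while OXA1L (0.09), MTFMT (0.16) and MTRFR (-0.05) lost them. Of 29 assembly and rRNA modification factors, 5 were higher and 4 lower. NGRN, needed for 16S rRNA, was lower (-1.04) and GTPBP6, a GTPase of ribosome assembly and recycling, was lower (-0.93). YBEY, an rRNA-processing nuclease on chromosome 21, was higher (1.65) from a low level, at 39.3 ± 3.54 in parental and 126 ± 15.7 in resistant cells (SD, n = 3 each). Its neighbours had a median of 1.31, and after centring it was at 0.34 with no call.

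Of 20 genes for mitochondrial aminoacyl-tRNA synthetases and amidotransferase subunits, 3 were higher and 3 lower. CARS2 (-0.47) and GATC (-0.50) were lower, and TARS2 (0.31) was higher. Of 18 genes that copy, maintain or transcribe mitochondrial DNA or process its RNA, 5 were lower and 1 higher. TFAM and TFB2M are in this list and also among the regulators below. The lower genes with the smallest p were HSD17B10 (-0.49), a subunit of RNase P, SSBP1 (-0.52), which coats single-stranded mitochondrial DNA, and the DNA polymerase POLG (-0.63). After centring, POLG lost its call (-0.24) and GATC turned to 0.09 with no call. In each of these 4 lists the share called, between 30% and 33.3%, was below the 37.7% of all genes.

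Of 14 regulators of nuclear genes for mitochondria or of mitochondrial DNA, 13 were tested, 2 were higher and 4 lower (46.2% called, against 37.7% of all genes). PPARGC1B, a coactivator of mitochondrial biogenesis, was higher at 861 ± 97.7 in parental and 1483 ± 97.8 in resistant cells (SD, n = 3 each), a log2 fold change of 0.79. YY1 itself was higher by 0.25 (limma adjusted p = 0.0434), and lost its call in 8 alternatives, among them centring (-0.08). NRF1 (-0.47), GABPB1 (-0.40), ESRRA (-0.49) and TFAM (-0.21), the packaging and transcription factor of mitochondrial DNA, were lower. The call of NRF1 was lost after centring (-0.19), and that of TFAM in 8 alternatives. GABPA on chromosome 21 was at 0.15 without a call, and after centring was lower at -0.59 (limma adjusted p = 0.00206). MYCN, at 37473 ± 951 in parental and 36152 ± 1042 in resistant cells (SD, n = 3 each), MYCL, PPRC1, PPARGC1A, GABPB2 and TFB2M were not called, and MYC was below the filter.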

How the data were processed

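RNA of parental and onvansertib-resistant H526 cells was sequenced in 3 libraries per group. Per the submitters' processing notes and the study's methods, the authors trimmed reads with Trimmomatic 0.38, quantified genes with RSEM 1.3.1 on GRCh38 with Gencode v43 and normalized the counts with DESeq2 1.30.0. The deposited values are this normalized signal, not counts: from 49.6% to 62.0% of the low values came to whole reads (tolerance 0.05), so no count test was run. Neither strand setting nor RNA selection was given in the sources used here.

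Symbols and positions came from Gencode v44 for 62639 of 62710 genes, after 47 second copies of pseudoautosomal genes were left out of 62757 rows. Genes with a mean of at least 10 entered limma 3.58.1 (R 4.3.3) as log2(value + 1), with a trend of variance on level. The p-values were adjusted by Benjamini-Hochberg over all genes tested, at 0.05. The steps were tested on simulated data. The settings also tried were a pseudocount of 0.1 or 10, an open filter, a minimum mean of 50, trimmed mean scaling, quantile normalization, no trend, centring on 50 neighbouring genes, subunits by structure, and each library left out. The members and lists were chosen with earlier results of these data known. Genes were named by rule: in each subunit the 6 largest called changes in each direction and the 2 highest and lowest levels per kb, members of known role, all subunits without the symbol, rRNAs and regulators, and the 3 smallest p in each other list. MRPL52, the other called members, partner and overlapping genes, MTFMT, GUF1 and MT-ND4 were added where a description needed them, after their values were seen. Other computations used Python 3.11.15, numpy 2.4.6, pandas 2.3.3 and matplotlib 3.10.9.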

Additional observations from a re-analysis of the deposited data

How the results depend on the processing

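The parental libraries are numbered 1 to 3 and the resistant libraries 7 to 9. The paper calls the parental and resistant cells matched, but no label used here ties a parental to a resistant library. No paired analysis was therefore run. Of the 31 called members, 15 kept their call in all 14 alternatives: MRPL11, MRPL12, MRPL14, MRPL20, MRPL41, MRPL48, MRPL51, MRPL53, MRPS11, MRPS12, MRPS23, MRPS26 and MRPS34 lower, and MRPL45 and MRPS22 higher. Centring on the neighbours lowered the large subunit calls from 19 to 12 (11 lower and 1 higher). It also turned the sign of MRPL39 (-0.11), MRPS6 (-0.30), GATC (0.089), YY1 (-0.077) and GABPA (-0.59). The neighbours of each of these genes had changed further in the same direction than the gene itself, and why was not tested. Genes of mitochondrial DNA were left out of the centring and so have no value there. With each library left out, large subunit calls were between 14 and 16 and small subunit calls between 9 and 11, against 29.4% to 34.3% of all genes. The median log2 fold change was then between -0.12 and -0.05 in the large and between -0.088 and -0.0052 in the small subunit, the last without parental library 1. Quantile normalization brought the medians to -0.03 in each subunit. Among lists, the protein genes of mitochondrial DNA had between 0 and 4 calls (4 without parental library 1). The list for upkeep of mitochondrial DNA and its RNA went from 6 to 3 without the trend, without parental library 1 or without resistant library 9. Assembly factors went from 9 to 5 without parental library 3, and translation factors from 5 to 2 after centring. Of the 27 members that share exon bases with another gene, 9 had an overlapping gene at 10% or more of their value. Pseudogenes in the table matched 36 members, and in 0 of them did these sum to 5% or more of the member's value.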
